A study of Mus musculus with 22 samples.

Results

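The first 2 h of GATA1-ER activation were examined in G1ER cells through their H3K27ac peak lists, 2 at 0 h and 2 at 2 h of β-estradiol. The peaks of these 4 lists were merged into 21383 regions, and 2 classes of regions were followed. A gained region had a peak in both lists at 2 h and in neither list at 0 h, and there were 389 (1.82% of all regions). A lost region had a peak in both lists at 0 h and in neither list at 2 h, and there were 390 (also 1.82%). The 4 lists belong to a series of 22 ChIP-seq peak lists, 10 each for H3K27ac and H3K4me3 (0, 2, 6, 12, and 24 h, 2 replicates each) and 2 for CTCF (0 and 24 h, 1 list each). All groups used here share the same cells, named G1E-ER4 by the labels. G1ER is 1 subclone of the G1E line of mouse erythroid progenitors, which lacks *Gata1*, and it expresses a transgene of GATA1 fused to the ligand binding domain of the estrogen receptor at all times. The groups differ only in hours of β-estradiol, in a medium with SCF and erythropoietin. No list of cells that lack the transgene was analysed here, so other effects of β-estradiol cannot be told apart from those of GATA1-ER.

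GATA1 is a zinc finger transcription factor that binds GATA motifs and is required for red cell development. In erythroid progenitors it takes over sites held by GATA2, activates globin, heme, and membrane genes with partners such as TAL1 and ZFPM1, and represses progenitor genes. H3K27ac is an acetyl mark laid down at active promoters and enhancers, and it turns over quickly, so it can follow an early change at enhancers. H3K4me3 marks mainly promoters, and CTCF binds at loop anchors and insulators.

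The GATA motif was read here as GATA with an A or T before it and an A or G after it, on either strand. Regions that return in the results are shown to let these matches be seen. Each sequence is the stretch of 200 bases, within the part shared by the defining peaks, with the most GATA motifs (GRCm38, plus strand, motifs in capitals). The first 4 are gained regions, in introns of *Cbfa2t3* and *Erg*, in an intron of *Foxo3*, and between genes near *Rgs1*. The last 2 are lost regions, in an intron of *Etv6* and between genes near *Kit*.
*Cbfa2t3*, chr8:122666382-122666581: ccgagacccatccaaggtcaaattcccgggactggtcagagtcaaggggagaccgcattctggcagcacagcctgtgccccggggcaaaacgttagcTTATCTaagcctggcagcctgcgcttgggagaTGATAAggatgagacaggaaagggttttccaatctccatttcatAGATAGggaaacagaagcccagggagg
*Erg*, chr16:95439945-95440144: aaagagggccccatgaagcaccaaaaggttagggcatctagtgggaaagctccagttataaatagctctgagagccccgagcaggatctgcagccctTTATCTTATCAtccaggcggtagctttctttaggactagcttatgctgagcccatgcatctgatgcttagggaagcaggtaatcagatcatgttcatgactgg
*Foxo3*, chr10:42199543-42199742: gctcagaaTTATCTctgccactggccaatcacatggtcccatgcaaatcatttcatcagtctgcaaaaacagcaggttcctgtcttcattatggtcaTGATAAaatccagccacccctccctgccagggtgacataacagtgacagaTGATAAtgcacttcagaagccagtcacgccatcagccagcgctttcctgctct
*Rgs1*, chr1:144269169-144269368: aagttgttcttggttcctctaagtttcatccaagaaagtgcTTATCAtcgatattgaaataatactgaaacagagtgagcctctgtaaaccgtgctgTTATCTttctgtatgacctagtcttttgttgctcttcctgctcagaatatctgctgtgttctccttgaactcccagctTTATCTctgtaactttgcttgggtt
*Etv6*, chr6:134045493-134045692: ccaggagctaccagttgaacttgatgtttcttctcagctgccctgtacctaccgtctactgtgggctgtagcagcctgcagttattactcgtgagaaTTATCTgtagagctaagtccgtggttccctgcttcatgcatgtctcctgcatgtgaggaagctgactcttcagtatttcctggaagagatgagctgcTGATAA
*Kit*, chr5:75479532-75479731: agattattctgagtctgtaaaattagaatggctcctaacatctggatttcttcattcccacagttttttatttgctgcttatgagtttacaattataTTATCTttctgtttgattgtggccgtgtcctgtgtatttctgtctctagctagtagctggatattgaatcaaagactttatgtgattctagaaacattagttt
The *Cbfa2t3* stretch held 3 GATA motifs and the *Erg* stretch 2, and in each of these 1 motif also completed an E-box-GATA element (CTG, a spacer of 7 or 8 bases, then AGATAA or TGATAA), the arrangement bound by TAL1 with GATA factors. The *Foxo3* and *Rgs1* stretches held 3 GATA motifs each, the *Etv6* stretch 2, and the *Kit* stretch 1.

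The lists held 17991 and 17893 peaks at 0 h and 17722 and 18076 at 2 h. They covered 44.4 ± 0.77 Mb and 44.9 ± 1.08 Mb (SD, n = 2 at each time). They give positions and the authors' score but no read counts, so the depth is unknown. Promoters of marker genes were checked against the labelled cell type. Of 29 erythroid genes activated by GATA1, 18 (62.1%) had a region present in all 4 lists within 2 kb of the transcription start site (TSS), against 7 of 25 mast cell and myeloid genes, 6 of 20 megakaryocyte genes, and 1 of 20 lymphoid genes. The share was 40.7% over all genes, 9 of 20 for red cell membrane genes, and 12 of 26 for progenitor genes. Most regions were shared by both times, as 14757 (69.0%) were in all 4 lists. Of the 1765 regions found in exactly 2 lists, 779 (44.1%) were gained or lost and 986 had 1 list at each time. The Jaccard index, the length covered in both of a pair of lists over the length covered in either, was 0.7589 between the lists at 0 h, 0.7464 between those at 2 h, and 0.7294 to 0.7321 across the times. With 2 lists against 2, an exact permutation test cannot go below p = 0.333, so the counts of gained and lost regions are a description and carry no test.

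The counts depended on the lists used. Without either list at 0 h there were 788 gained regions, and without a list at 2 h 1128 or 1273. Lost regions numbered 1093 or 1199 without a list at 0 h and 793 or 915 without a list at 2 h. With only peaks that scored at or above the pooled median, 67 regions were gained and 296 lost, so the even split did not hold among those peaks.

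Few of the regions that came or went were promoters, as in other regions found in few lists. A total of 37 gained regions (9.51%) and 60 lost regions (15.4%) held a protein-coding TSS, against 54.3% of the regions in all 4 lists and 10.8% of the 986 regions with 1 list at each time. Introns held 42.7% of gained regions and 28.7% of lost regions, whereas 29.8% of gained and 44.4% of lost regions lay between genes, and the regions with 1 list at each time gave 37.0% in introns and 40.5% between genes. Coding exons held a further 16.2% and 8.97%. The median distance to the nearest TSS was 16733 bp for gained and 16392 bp for lost regions. They were also small, with a median width of 1382 bp for gained and 1122.5 bp for lost regions against 2781 bp for regions in all 4 lists and 1075 bp for those with 1 list at each time.

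**Figure D1:**
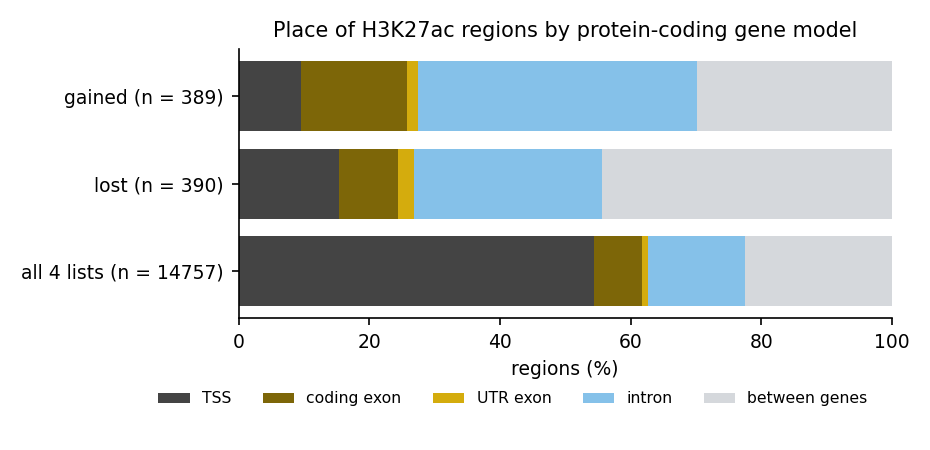
Share of regions (x axis, percent) by where they lie in protein-coding gene models, for regions gained at 2 h, lost at 2 h, and present in all 4 lists. The share that holds a TSS is 9.51% for gained, 15.4% for lost, and 54.3% for regions in all 4 lists.

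Most members rested on low-scoring peaks. The score of a peak was ranked within its own list, and the lower rank of the 2 defining peaks had a median percentile of 7.45 for gained and 7.36 for lost regions. It lay below percentile 10 for 242 gained and 244 lost regions and at or above percentile 50 for 4 gained and 9 lost regions. A region close to the threshold of the peak caller can enter or leave a list with a small change in signal or depth, and the part of this in the counts was not tested.

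Gained regions carried more GATA motifs at their centres than lost regions. Among the 352 gained regions without a TSS, the central 1 kb held 3.54 GATA motifs on average, against 2.27 in a window 10 kb away. The 330 lost regions without a TSS held 2.20 at the centre and 2.37 at 10 kb, and the 6739 such regions in all 4 lists held 2.65 and 2.20. Regions without a TSS that were found in a single list held 2.71. At least 1 GATA motif was found in 94.9% of gained, 88.5% of lost, and 89.2% of regions in all 4 lists, and in 85.2%, 86.7%, and 83.4% of the windows 10 kb away. Over all 21381 regions that could be read, TSS or not, the share was 77.7%. The median GC content of the central windows was 44.8%, 45.8%, and 45.9%. These are counts of letters and were not tested.

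**Figure D2:**
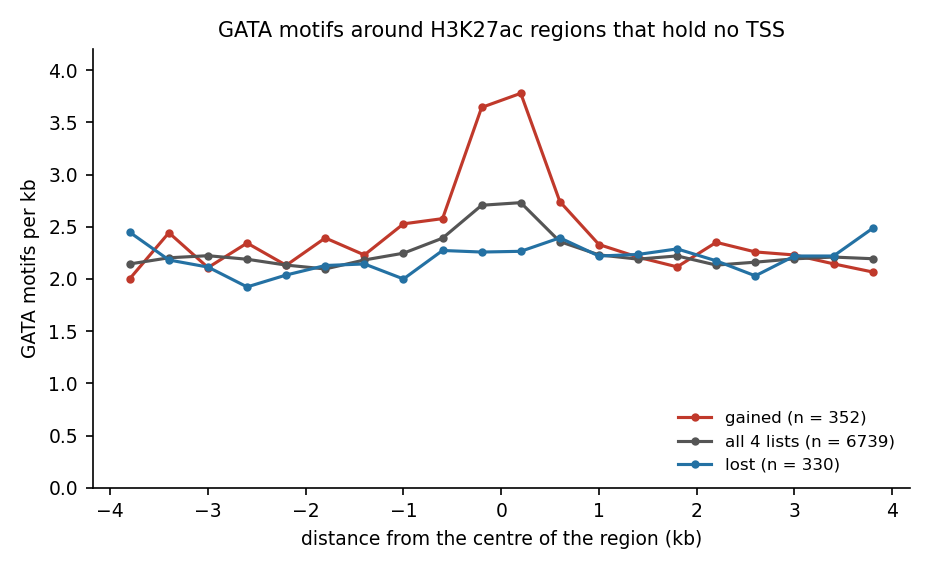
GATA motifs per kb (y axis) in bins by distance from the centre of the region (x axis, kb), for regions that hold no TSS. At the central bins gained regions reach 3.64 and 3.78 motifs per kb, regions in all 4 lists 2.71 and 2.73, and lost regions 2.26 and 2.27, which is within the range of their flanks.

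Other motifs were counted on both strands in the same windows. The E-box-GATA element occurred in 12.8% of gained, 10.9% of lost, and 14.1% of regions in all 4 lists without a TSS, against 7.39%, 4.24%, and 4.26% of the windows 10 kb away. The AP-1 motif (TGAGTCA or TGACTCA), the target of FOS and JUN proteins, occurred in 24.2% of lost regions and 16.7% of their windows 10 kb away, but in 60 of 352 gained regions and 61 of their windows, and in 1416 of 6739 regions in all 4 lists. The PU.1 motif GAGGAAGT, read by ETS factors of myeloid cells, occurred in 9.09% of gained, 11.2% of lost, and 10.8% of regions in all 4 lists. The KLF motif CCACACCC occurred in 7.67%, 10.6%, and 9.79%, and the RUNX motif TGTGGT in 58.2%, 63.9%, and 56.6%. The estrogen response element (GGTCA, any 3 bases, and TGACC) occurred in 2 gained regions and in 0 lost regions. Over all 21381 regions, the share was 8.94% for the E-box-GATA element (which contains a GATA motif), 17.3% for AP-1, 8.86% for PU.1, 9.57% for KLF, 49.9% for RUNX, and 0.164% for the estrogen response element. The mean number of GATA motifs, TSS or not, was 2.96 for the 81 gained regions found in 0 or 1 of the 6 later lists, 3.62 for the 156 found in 2 to 4, and 3.36 for the 152 found in 5 or 6, so it did not rise steadily with how often the peak was listed.

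The later lists at 6, 12, and 24 h, which had no part in choosing the regions, showed how long the early changes lasted. In the lists at 6 h, 61.2% and 61.7% of gained regions had a peak, followed by 60.4% and 61.4% at 12 h and by 53.7% and 50.9% at 24 h. Lost regions, which had no peak at 2 h, had one again in 40.3% and 39.2% of cases at 6 h, 36.9% and 35.1% by 12 h, and 29.5% and 26.4% by 24 h. In all 6 lists the share was higher for gained than for lost regions. A peak seen in 1 of the 2 lists at 2 h and in neither list at 0 h was listed again in 24.5% to 28.6% of 1623 regions. For a peak in 1 list at 0 h and neither at 2 h, it was 15.3% to 22.0% of 1512 regions. The higher share on the side of 2 h was thus shared with regions found in a single list. Regions with 1 list at each early time had a peak in 36.5% to 49.5%. All 6 later lists held 90 gained (23.1%) and 17 lost regions (4.36%), and none of the 6 held 44 gained (11.3%) and 97 lost regions (24.9%).

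Both shares were lower at 24 h than at 6 h. For lost regions Spearman's rho against hours was -0.956 (exact two-sided permutation p = 0.0222, Benjamini-Hochberg adjusted p = 0.0444 over 2 trends) and Pearson's r was -0.977 (exact p = 0.0222). For gained regions rho was -0.837 (exact permutation p = 0.0667, adjusted p = 0.0667), which missed the threshold, and r was -0.94 (exact p = 0.0444). With both lists at 24 h left out, gained regions gave an r of -0.53 and lost regions -0.93 (exact permutation p = 0.667 and 0.333), so the gained trend rested on the lists at 24 h. Other regions also fell, from 98.4% to 94.0% at the lowest for those in all 4 early lists, from 72.5% to 54.6% for those in 3 lists, and from 49.5% to 36.5% for those with 1 list at each time. The fall was thus shared with regions that were neither gained nor lost, and no difference between the trends was tested.

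**Figure D3:**
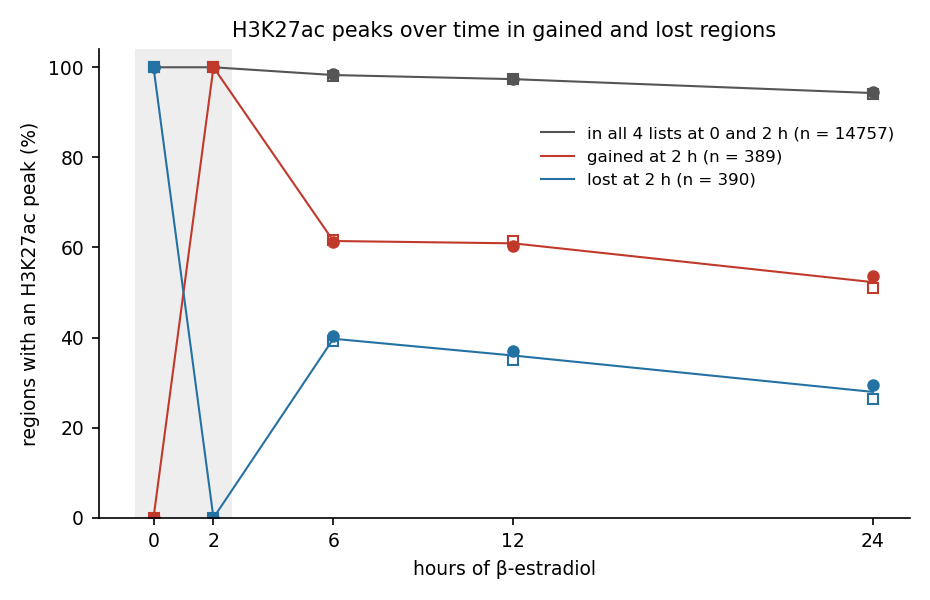
Share of regions with an H3K27ac peak (y axis, percent) in each list by hours of β-estradiol (x axis). Filled circles are replicate 1, open squares replicate 2, lines join the means, and the shaded lists at 0 and 2 h chose the regions. At 6 to 24 h gained regions lie between 50.9% and 61.7% and lost regions between 26.4% and 40.3%.

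Replicates of 1 later time often differed over the members. On average 26.5% of gained and 30.2% of lost regions had a peak in 1 of the 2 lists of a later time, against 3.68% of regions in all 4 early lists and 34.3% of those with 1 list at each early time. Among the 42 lost regions with a peak of 6 kb or longer in some H3K27ac list, the share was 42.9%, and among the 25 such gained regions it was 25.3%. No H3K27ac list held a peak longer than 8769 to 8973 bp, so a domain broader than this may be absent from a list, and its part in the losses and gains was not tested. Without such regions 364 were gained and 348 lost.

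Gained regions lay near several regulators of the progenitor state. Of 26 progenitor genes that GATA1 represses, 7 (26.9%) were the nearest gene within 100 kb of a gained region, against 1.55% of all 21842 genes. These were *Erg*, *Hhex*, *Ikzf1*, *Meis1*, *Myb*, *Runx1*, and *Spi1*, all transcription factors of stem cells, progenitors, or white cell lineages. These genes lie in domains with many regions (3.95 regions per gene against 1.83), and counted by region the share gained was 8.43% of 83 regions against 1.78% over all regions. Lost regions lay near 3 of the 26 genes (*Erg*, *Etv6*, and *Kit*), or 4.82% of the 83 regions against 1.75%. The list was chosen with earlier results of these data known, and its share was not tested.

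A long peak was listed from 2 h on in an intron of *Erg*, which encodes an ETS factor of hematopoietic stem cells. The region (chr16:95433591-95442146, 17099 bp from the nearest *Erg* TSS) was covered by 0 bp in both lists at 0 h and by 8439 and 8397 bp at 2 h. It kept 7988 and 8300 bp at 6 h and 8391 and 8176 bp at 12 h, but 5027 and 5005 bp by 24 h. All 8 H3K27ac lists with β-estradiol thus held it and neither list without did. Its percentile at 2 h was low despite its length, at 6.39 for the lower list, and a broader domain at 0 h was not tested. H3K4me3 was listed there before activation too, over 1815 and 1760 bp at 0 h and 1332 to 1774 bp from 2 h on.

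A pair of other intronic regions of *Erg* went the other way. One (chr16:95483209-95491236) was covered by 7969 and 7468 bp at 0 h, by 0 bp in both lists at 2 h, and by 1 list at 6 h (7430 bp). Both lists at 12 and 24 h held it again (6183 to 7821 bp). H3K4me3 covered 2796 and 2886 bp of this region at 0 h and 2842 and 2367 bp at 2 h. The other (chr16:95532740-95533597), 2375 bp from a TSS, was covered by 831 and 574 bp at 0 h and by none of the 8 lists that followed. *Erg* was the gene with the most gained or lost regions, 3 of its 8.

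An intronic region of *Ikzf1*, which encodes the lymphoid and erythroid regulator Ikaros, behaved like the first *Erg* region. It (chr11:11740084-11744467) was covered by 2882 and 2968 bp at 2 h and by 2781 to 4384 bp in the later lists, and it includes a coding exon. The *Runx1* intron (chr16:92792300-92797672) was covered by 4712 and 2782 bp at 2 h but by 1 list at 6 h (2092 bp), both at 12 h (2051 and 4374 bp), and 1 at 24 h (2351 bp). Its percentiles at 2 h were 5.12 and 3.08, and it lay 27 bp from a region present in all 4 lists. The region near *Myb* (chr10:21217428-21231347), 56444 bp from its TSS, was covered by 12828 and 13907 bp at 2 h in several peaks, and by 1 list at each later time. The replicates thus differed at *Runx1* at 6 and 24 h and at *Myb* at all 3 later times.

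The loss near *Etv6*, the gene of an ETS repressor, was seen at 2 h alone. The intronic region, 8927 bp from the TSS (chr6:134044896-134045937), was covered by 854 and 741 bp at 0 h, by neither list at 2 h, and by 583 to 1042 bp in all 6 later lists. Other progenitor genes had a brief or weak gain. The *Meis1* intron (chr11:18948329-18949337) was covered by 813 and 838 bp at 2 h and by 0 bp in all other H3K27ac lists. The *Hhex* region (chr19:37419526-37420842), which lies in *Kif11* 13968 bp from the *Hhex* TSS, likewise had peaks only at 2 h (812 and 1317 bp). At *Spi1*, the gene of PU.1, a region 2803 bp from the TSS (chr2:91078210-91079587) was covered by 1348 and 1377 bp at 2 h, and its lower percentile was 0.639. It lay 2028 bp from a region in all 4 lists, and every H3K4me3 list covered it, by 1003 to 1378 bp.

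Partners and cofactors of GATA1 formed the second group. Of 30 such genes, 6 were nearest to a gained region and 0 to a lost region, against 1.55% and 1.54% of all genes. The gained share was 8.75% of their 80 regions, against 1.78% of all regions within 100 kb. *Runx1* and *Myb* belong to this list too, and the others were *Tal1*, *Zfpm1*, *Cbfa2t2*, and *Cbfa2t3*. *Cbfa2t3* encodes the corepressor ETO2, which sits in the TAL1 complex. Its intronic region (chr8:122664530-122667681, 10391 bp from the TSS) was covered by 3152 and 2661 bp at 2 h and by 2664 to 3152 bp in all 6 later lists. The TSS of *Cbfa2t3* (chr8:122675880-122681319) was covered by 5363 and 5440 bp at 2 h and by 4 of the 6 later lists, whereas H3K4me3 lists covered it by 3498 bp or more at every time, including 4292 and 4212 bp at 0 h.

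The gains at *Tal1* and *Zfpm1* were small and were gone by 24 h. *Tal1*, the gene of the E-box factor that binds with GATA1, had a region 17693 bp from its TSS in a coding exon of *Stil* (chr4:115037414-115038733), covered by 638 and 1307 bp at 2 h, by 1 list at 6 h (703 bp), by 1320 and 1194 bp at 12 h, and by neither list at 24 h. *Zfpm1*, which encodes the GATA1 cofactor FOG-1, had one 7679 bp from its TSS (chr8:122273351-122274462), covered by 896 and 1112 bp at 2 h, 1112 bp in each list at 6 h, and 0 bp at 12 and 24 h. At *Cbfa2t2*, a paralog of *Cbfa2t3*, the intronic region was covered by 4751 and 3539 bp at 2 h and by 2 of the 6 later lists.

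The lists of erythroid genes were short, and gained or lost regions near them were few in number. Over all 21842 genes, 1.55% were nearest to a gained and 1.54% to a lost region within 100 kb. Of 29 erythroid genes that GATA1 activates, 2 (*Tal1* and *Zfpm1*, 6.90%) were nearest to a gained region and 1 (*Btn1a1*, 3.45%) to a lost one, and both gained members encode regulators. By region, 3.85% of the 52 regions of this list were gained and 1.92% lost, against 1.78% and 1.75% of all regions within 100 kb. None of the 25 heme and iron genes had a gained region, and 1 (*Abcb10*) had a lost one. Of 20 genes of the red cell membrane skeleton, 1 (*Mpp1*) had a gained region, which was covered by 524 and 588 bp at 2 h. The lists of 20 megakaryocyte and 20 lymphoid genes had 0 gained and 0 lost regions. Of 25 mast cell and myeloid genes, 1 (*Rgs1*, a regulator of G protein signaling) had a gained region and 0 a lost one.

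*Abcb10*, a mitochondrial transporter of erythroid cells, lost a long but low-scoring peak at its promoter. Its TSS region (chr8:123977821-123984888) was covered by 7046 and 7054 bp at 0 h and by 0 bp in all 8 lists from 2 h on. The percentiles at 0 h were 0.331 and 10.1, and a region in all 4 lists lay 1877 bp away. The H3K4me3 cover of the same region was 3763 and 3960 bp at 0 h, 4982 and 3576 bp after 2 h, and 6166 and 6505 bp after 24 h. H3K4me3 was therefore listed there at every time while H3K27ac was not. Whether a domain broader than the longest listed peak (8973 bp) lay there after 0 h was not tested.

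Signaling, survival, and early response genes were split. Of 27 genes of survival, the cell cycle, and autophagy, 2 (*Cish* and *Foxo3*) were nearest to a gained region (7.41%) and 1 (*Foxo3*) to a lost one (3.70%), against 1.55% and 1.54% of all genes. *Foxo3*, a forkhead factor of erythroid maturation, gained an intronic region 57749 bp from its nearest TSS (chr10:42198111-42200617), covered by 2507 and 2212 bp at 2 h and by 1858 to 2507 bp in all 6 later lists. Another *Foxo3* region, 858 bp from a TSS (chr10:42259224-42263316), was covered by 4093 and 3598 bp at 0 h, by 0 bp at 2 h, and again by both lists at 6 h (2932 and 3949 bp) and 1 list at 12 h (3863 bp). Its percentiles at 0 h were 0.812 and 27.7. *Cish*, a feedback inhibitor of erythropoietin signaling, gained a region 9991 bp away (chr9:107306903-107310061), covered by 2714 and 3159 bp at 2 h, 0 bp at 6 h, and 2365 to 3141 bp at 12 and 24 h. This region lay 732 bp from one in all 4 lists. Of 30 immediate early genes, *Btg2* and *Ier2* were near gained and *Klf6* and *Zfp36l1* near lost regions (6.67% of the list each way). The *Btg2* region (chr1:134086143-134088012), 7023 bp from the gene of an antiproliferative protein, was covered by 1870 and 1472 bp at 2 h and by 1470 to 1870 bp in all later lists. The *Ier2* region (chr8:84655051-84658619), near another early response gene, was covered by 3554 and 3531 bp at 2 h and by 1 later list. The region near *Klf6*, a zinc finger factor (chr13:5844160-5852336), was covered by 7953 and 8070 bp at 0 h, by 0 bp at 2 and 6 h, and by 7324 to 7871 bp in 3 of the 4 lists at 12 and 24 h. Its percentiles at 0 h were 6.81 and 2.55. The region nearest *Zfp36l1*, which encodes an mRNA decay factor, lay 71033 bp from its TSS (chr12:80040535-80041961). This region was covered by 1427 and 1159 bp at 0 h and by none of the 8 lists with β-estradiol, and its lower percentile was 5.62. Of 19 estrogen receptor target genes, 0 had a gained and 1 (*Ctsd*, a lysosomal protease) a lost region.

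Of the 42 genes whose promoters the study targeted, 41 were matched by symbol. Among these 41, 3 (*Btg2*, *Rgs1*, and *Tmem44*) were nearest to gained and 6 to lost regions (7.32% and 14.6%, against 1.55% and 1.54% of all genes). By region, 2.63% of their 114 regions were gained and 5.26% lost, against 1.78% and 1.75%. The study chose these genes for a change of expression in the same cells, so they are no independent evidence. They pool genes that rise and genes that fall, and *Btn1a1*, near a lost region, is an activated gene in the study. *Tmem44*, a transmembrane protein gene, gained a peak over its TSS (chr16:30546713-30553331), covered by 5491 and 5697 bp at 2 h and 3661 to 5084 bp in all later lists, whereas H3K4me3 covered 2634 to 3425 bp in every list from 0 h on. The region near *Rgs1* (chr1:144267763-144270160) was covered by 2232 and 1454 bp at 2 h, 2097 and 1662 bp at 6 h, but by no list at 12 or 24 h. Lost regions lay near *Abcb10*, *Atp1b2*, *Btn1a1*, *Kit*, *Plekho2*, and *Sept9*. The region closest to *Kit*, the receptor of SCF, lay 93169 bp from its TSS (chr5:75479491-75481747) and was covered by 1463 and 2257 bp at 0 h, by 1 list each at 6 and 12 h (559 and 1115 bp), and by 0 bp at 24 h. An intronic region of *Atp1b2*, a subunit of the sodium pump, that includes a coding exon (chr11:69599023-69601721) was covered by 2699 and 2426 bp at 0 h and by none of the 8 lists that followed.

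**Figure D4:**
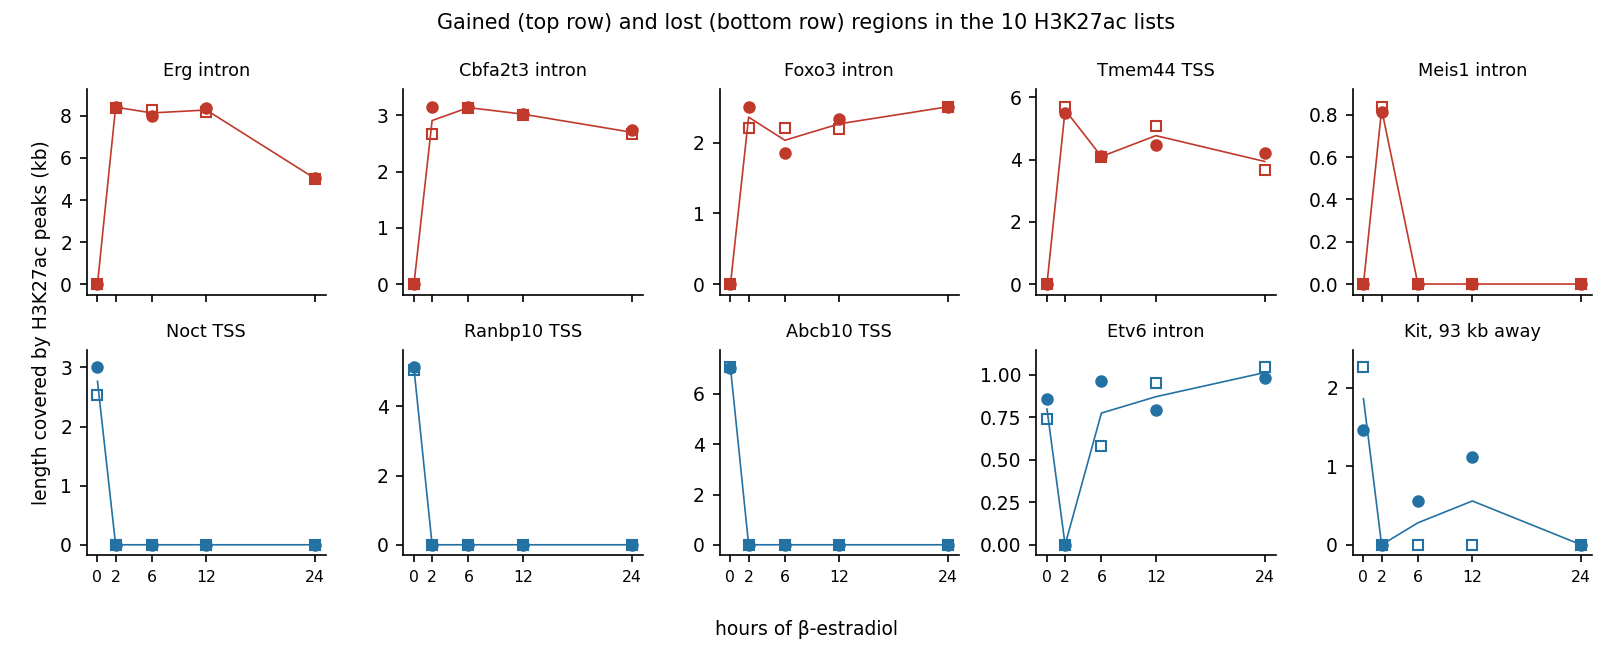
Length covered by H3K27ac peaks (y axis, kb) in 5 gained (red) and 5 lost regions (blue) by hours of β-estradiol (x axis); filled circles are replicate 1, open squares replicate 2, and lines join the means. The *Erg*, *Cbfa2t3*, *Foxo3*, and *Tmem44* regions were covered in all 8 lists from 2 h on and the *Meis1* region at 2 h alone, whereas *Etv6* was lost at 2 h and covered again in all 6 later lists.

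Promoters of genes central to the study were then read directly. Within 2 kb of the TSS, *Mafk*, which encodes a small MAF protein, was covered by 2786 and 2712 bp at 0 h and 2701 and 2808 bp at 2 h. *Tmem184a* was covered by 2117 and 1884 bp at 0 h and 2326 and 2345 bp at 2 h. For *Btn1a1* the values were 1203 and 2361 bp at 0 h and 0 and 2726 bp at 2 h, and at *Ms4a2*, a mast cell receptor subunit, they were 3734 and 3802 bp and 3712 and 0 bp, so for both genes 1 list at 2 h had a peak and the other did not. The values at 0 and 2 h overlapped at *Mafk* and did not at *Tmem184a*, and these differences were not tested. *Kit* and *Gata2* were listed at 0 in all 4 lists. Whether a domain broader than the longest listed peak went unlisted at these promoters was not tested.

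Of the 10 highest-scoring gained regions, 8 held a TSS, often of a widely expressed gene, against 40.6% of all 21383 regions. By the lower percentile of the defining peaks they were led by the TSS regions of *Eef1d*, a translation elongation subunit (chr15:75907316-75910593, percentile 74.0), *Hmga1*, a chromatin protein (chr17:27553515-27560629, 61.8), *Gabarap*, an autophagy protein (chr11:69990254-69993639, 56.4), and *Atp6v0c*, a proton pump subunit (chr17:24162205-24171413, 51.2). *Dtymk*, *Pla2g6*, *Tmcc2*, *Tmem44*, and *Grk2* were among those that followed. Later lists held them unevenly. *Hmga1* was covered by 7008 and 6997 bp at 2 h and by 5 of the 6 later lists, *Gabarap* by 3368 and 3352 bp and only by the lists at 12 h, and *Eef1d* by 2710 and 3269 bp and by 1 list each at 6 and 12 h. A region in the coding part of *Tmcc2* (chr1:132379465-132384566) was covered by 3606 and 5102 bp at 2 h and by none of the later lists.

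Of the 10 highest-scoring lost regions, 9 held a TSS, against the same 40.6% of all regions. The TSS shares of the highest-scoring gained and lost regions were not compared with other regions of like score. *Noct*, which encodes the circadian protein nocturnin, ranked first at percentile 88.9. Its TSS region (chr3:51223595-51226593) was covered by 2999 and 2532 bp at 0 h and by 0 bp in all 8 lists from 2 h on, and H3K4me3 covered 2831 to 2999 bp in all 10 lists. *Larp1* (chr11:58006931-58012460, 5353 and 4953 bp at 0 h), *Eif3a* (chr19:60787590-60792566, 4977 and 4858 bp), and *Ranbp10* (chr8:105822895-105828121, 5127 and 5063 bp) were also covered by 0 bp in all 8 lists with β-estradiol. *Larp1* and *Eif3a* act in translation. *Nxpe4* was the opposite case, covered by 4984 and 5088 bp at 0 h, 0 bp at 2 h, and 3871 to 5100 bp in all 6 later lists. *Vkorc1l1*, *Crlf3*, *Ahi1*, *Cog3*, and *Atp5b* completed the list, with peaks in 1 to 3 of the later lists.

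H3K4me3 was listed more often at regions with a TSS than at the rest. Of the 37 gained regions with a TSS, 26 (70.3%) had an H3K4me3 peak in all 10 H3K4me3 lists. So did 45 of the 60 lost ones (75%) and 97.4% of the 8018 regions with a TSS in all 4 lists. No H3K4me3 peak at 0 or 2 h was found in 24.3%, 16.7%, and 1.33% of these regions. Of the 352 gained regions without a TSS, 296 (84.1%) had no H3K4me3 peak at 0 or 2 h, against 69.1% of the 330 lost and 47.9% of the 6739 such regions in all 4 lists. By the same rule, H3K4me3 was itself gained at 2 h in 1 and lost in 2 of the 389 gained regions, and gained in 1 and lost in 4 of the 390 lost regions. The CTCF list at 0 h held a peak in 16.5% of gained, 17.4% of lost, and 29.3% of regions in all 4 lists.

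Gained and lost regions were spread over the genome. A gap of 16457 bp (gained) and 18202.5 bp (lost) at the median parted them from the nearest region in all 4 lists, and 14.4% and 14.1% lay within 5 kb of one. Another gained region lay within 50 kb of 26 gained regions (6.68%), and another lost one within 50 kb of 32 lost regions (8.21%). These shares were not compared with random placement. There were 2 gained regions near each of 13 genes, *Cbfa2t3*, *Grk2*, and *Tmcc2* among them, and 2 lost regions near each of 8 genes.

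The length covered in each region was then compared with limma, as log2(covered bp + 200), over the 10 lists. Of 18248 regions with a peak in at least 2 of the 4 early lists, 288 (1.58%) were longer and 179 (0.981%) shorter at 2 h at an adjusted p under 0.05, and 2412 had an unadjusted p under 0.05. The gained and lost regions differed by construction and gave 169 and 146 of these calls, so nothing further is read from these. Of the 14757 regions in all 4 lists, 119 were longer and 33 shorter. The longer ones had a median of 2345 bp before and 3554 bp after 2 h of β-estradiol, and 108 (90.8%) were covered more than their mean at 0 h in all 6 later lists. The shorter ones had a median of 4068 and 2538 bp, and 22 (66.7%) were covered less in all 6. The same values at 0 h and the spread of the later lists helped choose these regions, so neither share tests persistence. A fit to these 14757 regions alone gave 37 longer and 12 shorter, and a fit to the 4 early lists alone gave 71 longer and 83 shorter over all 18248. Leaving out 1 list gave 564 or 491 longer regions (replicate 1 or 2 at 0 h left out) and 345 or 444 shorter regions (replicate 1 or 2 at 2 h left out).

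The 5 regions with the largest increase among those past the limma threshold and neither gained nor lost included promoters and regions between genes. At *Phospho1*, the gene of a phosphatase, the TSS region (chr11:95823141-95830842, which also overlaps *Abi3* and *Zfp652*) was covered by 2728 and 3023 bp at 0 h and 7536 and 7140 bp at 2 h. It stayed between 7211 and 7441 bp in the later lists (log2 difference 1.29 ± 0.06, SE, limma adjusted p = 1.7e-04). The region nearest *Rpia* (chr6:70725759-70732770) lay between protein-coding genes, 59462 bp from the *Rpia* TSS, and genes of other types had no part in its name. It went from 2136 and 2291 bp to 6691 and 6342 bp (1.48 ± 0.1, limma adjusted p = 6.6e-04). The TSS of *Ankrd17* (chr5:90337518-90344750) went from 2351 and 2058 bp to 5541 and 7233 bp (1.44 ± 0.22, limma adjusted p = 0.0216). The *Ankrd17* call was lost in 5 of 17 alternatives (adjusted p from 0.064 to 0.108), namely without either replicate at 0 h, without replicate 2 at 2 h, with a peak required in all 4 lists, and with the 4 early lists alone. The region nearest *Nup160*, a nuclear pore gene (chr2:90666805-90668999), went from 685 and 692 bp to 2069 and 2195 bp, and the one nearest *Fsbp* (chr4:11608049-11612572), in *Rad54b*, from 1299 and 1590 bp to 3635 and 4482 bp. In these 5 regions every later list covered more than both lists at 0 h.

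Shortened regions took different courses later. At *Gpt*, an alanine aminotransferase gene, the TSS region (chr15:76695406-76702993) was covered by 7509 and 7444 bp at 0 h and 2959 and 2937 bp at 2 h (-1.29 ± 0.03, limma adjusted p = 1.5e-05). It was short at 6 h (3299 and 3339 bp) and 24 h (3458 and 3482 bp) and long at 12 h (7475 and 7430 bp). *Ddx19a*, an RNA helicase gene (chr8:110986290-110990950), went from 4603 and 4557 bp to 1991 and 1958 bp and was back at 4293 to 4661 bp from 6 h on (-1.14 ± 0.05, adjusted p = 1.6e-04). The TSS region of *Abca7* (chr10:79993904-79998373) fell from 4282 and 4429 bp to 2140 and 2161 bp and stayed at 2071 to 2643 bp. *Rbm12b2* (chr4:12086557-12091434) fell from 4808 and 4843 bp to 2313 and 2525 bp, and a region whose nearest TSS (*Gm16223*) is 381452 bp away (chr5:42449412-42455196), beyond the 100 kb used to name others, from 5785 and 5134 bp to 1663 and 2704 bp. The *Gm16223* region had 0 bp in both lists at 24 h, and its call (limma adjusted p = 0.0449) was lost in 14 of 18 alternatives, with adjusted p up to 0.213. As they shortened, the best percentile rose at *Gpt* (21.2 and 20.9 to 74.8 and 76.5) and *Rbm12b2* (66.1 and 62.4 to 91.1 and 81.7). It fell at *Ddx19a* and overlapped between the times at *Abca7* and *Gm16223*. A change in covered length was thus no measure of a change in score, and its cause was not tested.

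**Figure D5:**
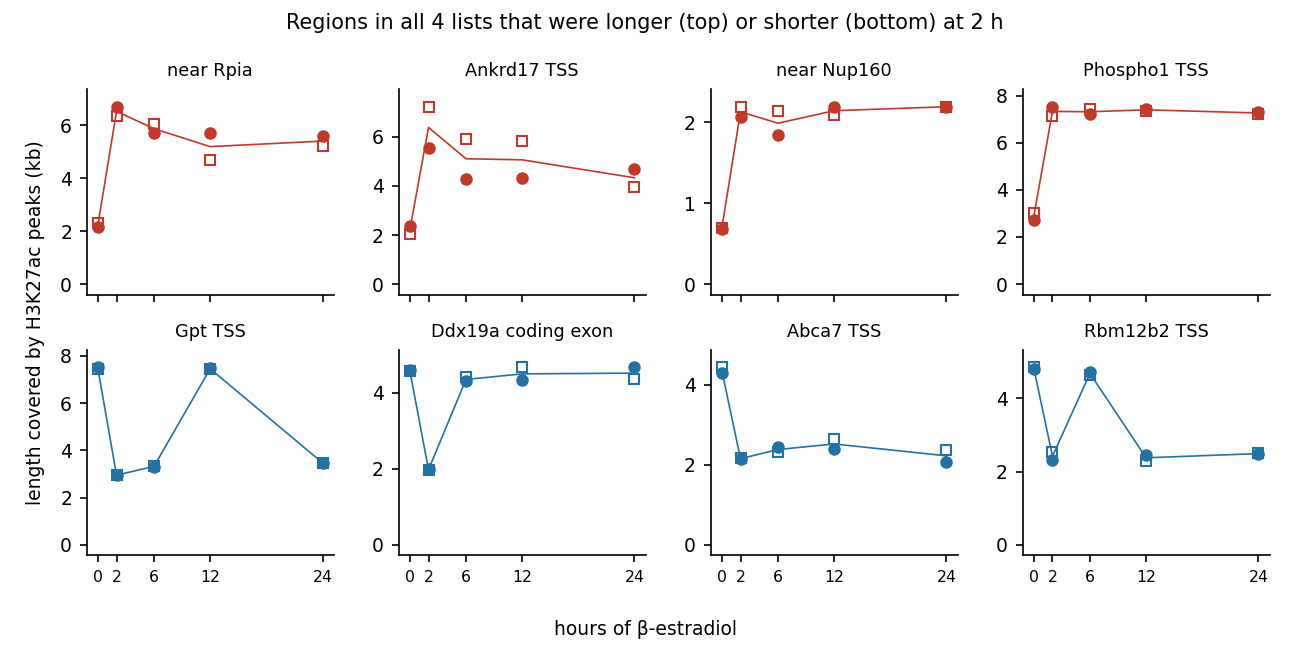
Length covered by H3K27ac peaks (y axis, kb) by hours of β-estradiol (x axis) in 4 regions that were longer at 2 h (red, top row) and 4 that were shorter (blue, bottom row), all present in the 4 early lists; circles and squares are replicates 1 and 2 and lines join the means. *Phospho1* stays between 7140 and 7536 bp from 2 h on, whereas *Ddx19a* is back at its length of 0 h from 6 h on.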

How the data were processed

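H3K27ac, H3K4me3 (2 replicates at 0, 2, 6, 12, and 24 h), and CTCF (1 list at 0 and 24 h) peak lists of G1ER cells were analyzed. According to the labels and methods, Bowtie2 alignment to mm10 was followed by MACS peak calling in each library. The version, control, and threshold are not given in the sources used here. The authors deposited 1 score per peak, read here as a p-value on a negative log10 scale times 10. It is not comparable between lists and served only to rank peaks. The sample labels name a human build, but 0 peaks lay past a GRCm38 chromosome end. The lists hold no counts, so the depth per sample and its precision are unknown. The paper speaks of 2 independent experiments for ChIP-seq, while nothing in the labels says whether replicates came from separate cultures. The p-values measure only the spread between these lists.

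Touching or overlapping peaks of the 4 lists at 0 and 2 h were merged, and a shared stretch of 1 bp sufficed for a list to hold a region. A region was assigned to the nearest protein-coding TSS (GENCODE M21) within 100 kb, and to a TSS, coding exon, UTR exon, intron, or the space between genes, in that order. log2(covered bp + 200) was compared in limma (lmFit, then eBayes with a trend), with 5 group means and Benjamini-Hochberg adjustment over 18248 regions, a step tested on simulated data. Lengths that jump to 0 break its assumption of normal noise, and its adjusted p-values then understate false calls. Motif matches on either strand of GRCm38 (RefSeq) were counted in 1 kb windows at region centres and 10 kb downstream in coordinates, overlapping matches included.

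The regions, gene lists (from general knowledge, apart from the captured promoters), tests, and naming rule were chosen with earlier results of these data known. Named were the 10 gained and 10 lost regions of highest lower percentile among those within 100 kb of a TSS. Also named were all gained or lost regions nearest to a gene of the lists, the 5 longest and 5 shortest other regions past the limma threshold, and 6 promoters. *Ahsp*, *Wisp2*, and *Hbb-b1* had no match by symbol. One of the regions that the rule names is not reported here. Alternatives were higher-scoring peaks, equal numbers of peaks, merging within 500 bp, autosomes and X, overlap of at least 50%, pseudocounts of 50 and 1000 bp, other minimum numbers of lists, the 4 early lists alone, a replicate block, scaling by median peak length, Pearson's r, and leaving out each list. The fits ran in limma 3.58.1 (R 4.3.3) and all other steps in Python 3.11.15 with scipy 1.17.1, pysam 0.24.0, pandas 2.3.3, matplotlib 3.10.9, and numpy 2.4.6.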

Additional observations from a re-analysis of the deposited data

How the results depend on the processing

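Several alternatives moved the counts by over 1.5 times. Keeping the better-scoring peaks (pooled median or higher) gave 67 gained and 296 lost regions, and 65 longer and 146 shorter regions by limma. Leaving out each early list gave 788 to 1273 gained and 793 to 1199 lost regions, since fewer lists then have to agree. Counts under the other alternatives ranged from 364 to 566 for gained regions and from 348 to 468 for lost regions. For limma, a peak required in all 4 lists gave 37 longer and 12 shorter regions, and the 4 early lists alone gave 71 and 83. Leaving out each of the 10 lists gave 256 to 564 longer and 147 to 444 shorter regions, highest without replicate 1 at 0 h (564 longer) and without replicate 2 at 2 h (444 shorter). The replicate block gave 235 longer and 149 shorter regions, and the numbers do not pair the lists, since same-numbered lists of different times had deviations correlated at -0.036 to 0.023.

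The trend of gained regions passed the threshold with Pearson's r (-0.94, adjusted p = 0.0444), with merging within 500 bp (rho = -0.956, exact permutation adjusted p = 0.0222), and with members chosen without either list at 0 h or without replicate 2 at 2 h (each rho = -0.956, adjusted p = 0.0222). It ranged down in size to -0.478 with members chosen without replicate 1 at 2 h (adjusted p = 0.4). Leaving out each later list gave rho from -0.949 to -0.738. The trend of lost regions missed the threshold with higher-scoring peaks (rho = -0.837, adjusted p = 0.0667) and with equal numbers of peaks (-0.788, 0.178). Without both lists at 24 h (r = -0.93, exact permutation adjusted p = 0.667) it could not pass, since 4 lists cannot go below p = 0.333. Leaving out each later list gave rho = -0.949 throughout, where 5 lists cannot go below p = 0.0667. The cause of these shifts was not tested. Of 176 refits of the 10 regions named for their length, 154 kept their side of the threshold, 22 lost it (14 of them for *Gm16223* and 5 for *Ankrd17*), and 0 changed direction. Leaving out regions with a peak of 6 kb or longer and leaving out both lists at 24 h were chosen after seeing the data. The lists hold no depth, so how it limits the calls is unknown.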
